A study of Mus musculus with 670 samples.

Results

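The cells described here are the wells of 24-month-old male mice that gave a usable library: 65 wells out of 670 in the series, and 22.6% of the wells of that age (exact binomial 95% interval 17.9% to 27.8%). A well was kept when at least 500 genes had a read, when it held at least 50000 reads outside the ERCC spike-ins (synthetic RNAs added to each well) and when mitochondrially encoded genes took under 20% of those reads. Skeletal stem cells had been sorted from long bones, uncultured and untreated, 1 cell to a well, and read by SmartSeq2, which sequences along the whole transcript. The 24-month wells came from 3 plates, 2, 5 and 12, which gave 21, 18 and 26 kept wells from 96 each. Plates 2 and 12 are labelled batch 3 and plate 5 batch 2. The same filter kept 64.1% of the wells at 2 months and 75.8% (72 of 95) at postnatal day 3, also male. No label names an animal, a strain or the antibodies of the sort, so each age is 1 sample, its wells are not replicates, and no test between ages was made. Column names hold a code starting with M that no label explains, and it was not read as an animal. The intervals cover error in counting wells only, and wells share plates and may share animals. Reads copied by PCR are also not independent molecules.

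Skeletal stem cells are cells of bone that can give rise to bone, cartilage and the stroma of the marrow. Cells set on bone formation make a mineralising matrix under the control of Runx2, while stromal cells around marrow vessels secrete Cxcl12 and Kitl, factors that hold and feed blood stem cells. Cells at the joint surface secrete lubricin, the product of Prg4. Blood cells are meant to be removed from such sorts, so their genes serve as a check on the wells.

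Of the wells not kept, 99.6% had under 500 genes, 83% had under 50000 reads and 37 wells had a mitochondrial share of at least 20%. These wells held a median of 13 genes and 1368 reads. Only the gene limit kept out 30 of them. Just outside it lay 4 wells with 458 to 499 genes, each holding 1 or 2 of the 8 marker genes described below, and just inside it lay 10 wells with 501 to 544 genes, holding 0 to 2. The kept wells had 344182, 1464506 and 5994911 gene reads and 501, 727 and 2294 genes (lowest, median and highest). At 2 months the medians were 639066 reads and 1569 genes, and at postnatal day 3 they were 1082515 and 2192, so the 24-month wells held fewer genes on more reads. Only 15 of the 65 wells reached 1000 genes. Mitochondrial genes took at most 10.5% of reads.

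Throughout, a well is said to hold a gene when the gene had at least 1 read in 50000 of the well's gene reads, which is 20 CPM (reads scaled to a common total per well). A well is said to carry a list when it held at least 3 of the list's genes. Thinning every well to 50000 reads, where 1 read is this same limit, left the share of wells for each of the 8 marker genes within its interval. CPM is not divided by transcript length, so levels are compared between wells and not between genes.

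Skeletal genes marked most of the wells. At least 3 genes of the bone, joint surface, cartilage, marrow stroma or fibroblast list were held by 53 of 65 wells (81.5%, 70% to 90.1%). Bone genes led: 37 wells (56.9%, 44% to 69.2%) carried the bone list of 14 genes, on 10, 12 and 15 wells of plates 2, 5 and 12. The marrow stroma list was carried by 14 wells (21.5%), the fibroblast list by 9 (13.8%), the joint surface list by 8 (12.3%), the neutrophil list by 5 (7.69%), the cartilage list by 4 (6.15%) and the red cell list by 2 (3.08%). The lists differed in length: bone and fibroblast had 14 genes, cartilage, marrow stroma and neutrophil 12, joint surface 10 and red cell 9. No list among these was carried by 7 wells, 1 list by 38, a pair by 19 and 3 lists by 1 well.

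**Figure D1:**
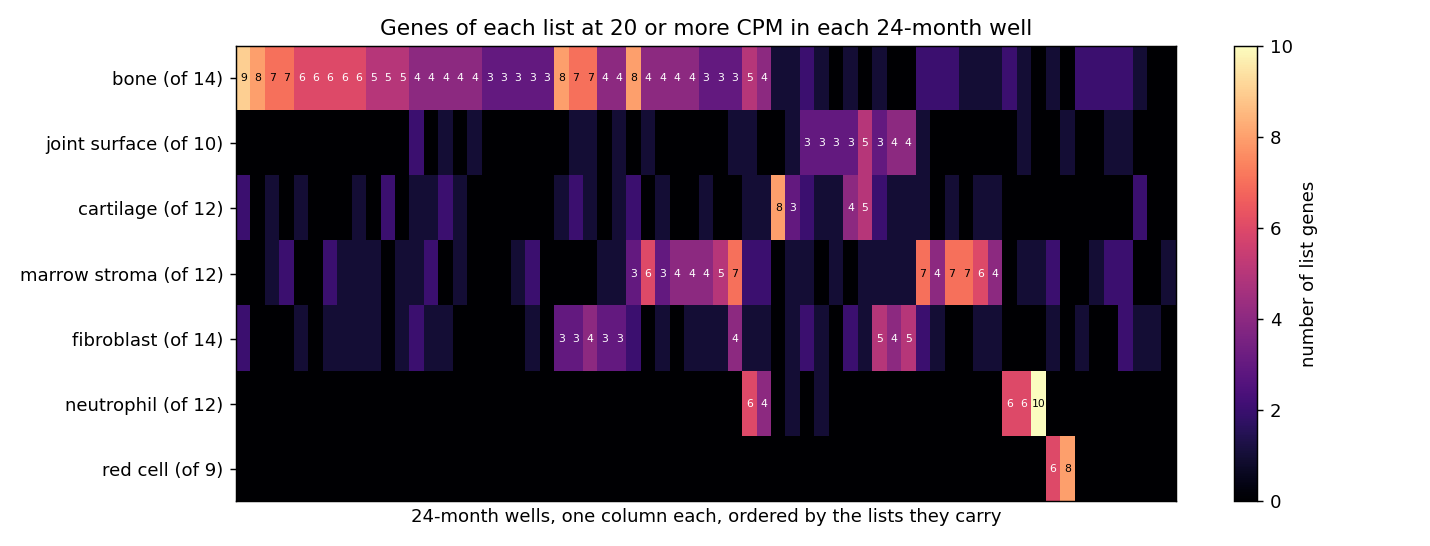
Number of genes of each list at 20 or more CPM in each of the 65 wells of 24 months. Columns are wells ordered by the lists they carry, rows are lists with the number of their genes in brackets, colour is the number of genes held, and digits are printed from 3 genes up. The row of the bone list is filled in 37 wells, and none of them has 3 joint surface or cartilage genes.

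Of the 8 marker genes, the bone pair Bglap or Runx2 was held by 28 wells (43.1%, 30.8% to 56%) and the stroma pair Cxcl12 or Ebf1 by 33 (50.8%, 38.1% to 63.4%). Prg4 was held by 10 wells (15.4%, 7.63% to 26.5%) and any of the blood genes Ngp, S100a9 and Hba-a2 by 7 (10.8%, 4.44% to 20.9%). A gene of the bone pair was held beside a gene of the stroma pair in 16 wells, while 11 wells held the bone pair without any other marker gene, 11 the stroma pair, 6 Prg4 and 4 a blood gene. None of the 8 genes was held by 10 wells, 1 gene by 22, a pair by 25, 3 genes by 7 and 4 genes by 1 well. Of the 10 wells with none, 9 held Ibsp or Spp1, both of which encode proteins of the bone matrix. That is near the share of all wells with either gene (55 of 65, 84.6%). On plate 2 lay 7 of the 10.

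**Figure D2:**
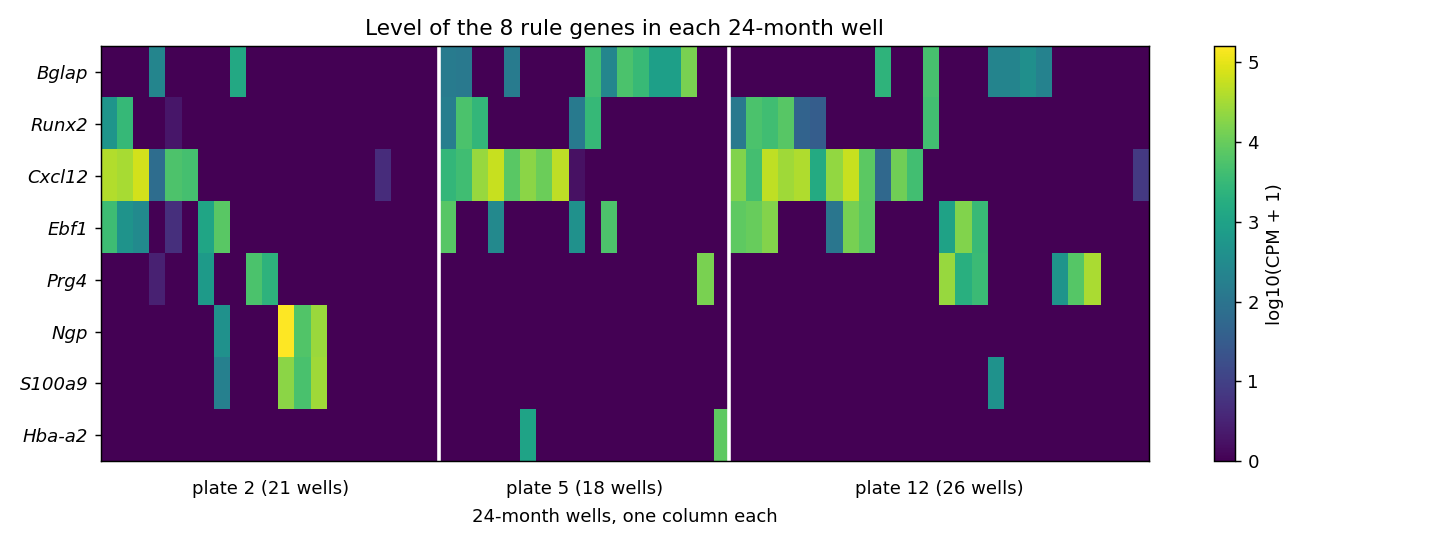
Level of the 8 marker genes in each of the 65 wells, as log10 of CPM plus 1. Columns are wells, grouped by plate with white lines between plates. Cxcl12 is high on all 3 plates, Ngp is filled on plate 2 only (4 wells), and Hba-a2 on plate 5 only (2 wells).

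Bglap encodes osteocalcin, a calcium-binding protein that bone-forming cells secrete late in their maturation. It was held by 18 wells (27.7%, 17.3% to 40.2%), at 126.5, 615 and 14184 CPM (lowest, median and highest of those wells). The wells were unevenly spread: 10 of 18 on plate 5, against 2 of 21 on plate 2 and 6 of 26 on plate 12. Without plate 5, the share was 8 of 47 (17%). Bglap lies on chromosome 3 beside Bglap2, which encodes an almost identical protein, so reads can be divided wrongly between them. The coding sequences, read from GENCODE M21 on GRCm38, minus strand, without the stop codon and with coding exons joined, are printed to show how little separates them, with the bases that differ in capitals. Bglap covers chr3:88383638-88384415 and Bglap2 chr3:88377873-88378650.
Bglap: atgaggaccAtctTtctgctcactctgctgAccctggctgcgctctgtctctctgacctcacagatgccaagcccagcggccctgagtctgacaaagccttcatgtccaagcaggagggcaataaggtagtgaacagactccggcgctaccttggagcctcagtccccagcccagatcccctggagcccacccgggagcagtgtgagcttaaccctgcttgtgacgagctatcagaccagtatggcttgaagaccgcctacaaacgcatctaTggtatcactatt
Bglap2: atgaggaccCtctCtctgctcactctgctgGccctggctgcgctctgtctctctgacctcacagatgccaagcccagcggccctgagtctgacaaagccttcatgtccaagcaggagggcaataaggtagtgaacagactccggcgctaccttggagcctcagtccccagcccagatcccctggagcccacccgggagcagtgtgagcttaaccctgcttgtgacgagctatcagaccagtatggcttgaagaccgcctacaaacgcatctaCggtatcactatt
Over their 95 codons, 4 bases differ (98.6% identity). Bglap2 was held by 14 wells, 11 of them among the 18 with Bglap, and 21 wells (32.3%, 21.2% to 45.1%) held at least 1 of the pair. Each of the pair counts as a separate gene of the bone list.

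The wells with Bglap held other genes of mineralised matrix. Col1a1, a chain of type I collagen, was held by 17 of the 18 wells with Bglap and by 18 of the 47 without. Alpl, the phosphatase that frees phosphate for mineral, was held by 10 of 18 against 6 of 47. Ibsp was held by 16 of 18 and 25 of 47, and Spp1 by 14 of 18 and 30 of 47. Adipoq and Lepr, genes of marrow stroma, were held by none of the 18 wells, and by 7 and 8 of the 47 others. Some other genes of marrow stroma were not absent: Cxcl12 was held by 5 of the 18, Ebf1, Kitl, Hp and Foxc1 by 2 each and Vcam1 by 1. In the same order, 21, 16, 8, 10, 7 and 10 of the 47 others held them.

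Runx2, on chromosome 17 (44495987 to 44814797), encodes the transcription factor needed for cells to become osteoblasts. It was held by 14 wells (21.5%, 12.3% to 33.5%), 2, 5 and 7 on plates 2, 5 and 12, at 33.4, 2885 and 7078 CPM. Bglap was held by 4 of these 14 wells and by 14 of the 51 without Runx2, which are similar shares. Cxcl12 was held by 11 of the 14 and by 15 of the 51. By plate, the 4 wells with both Bglap and Runx2 were 3 on plate 5 and 1 on plate 12. Ibsp and Spp1 were each held by 13 of the 14 wells with Runx2, and 13 of the 14 carried the bone list. Runx2, Ibsp and Spp1 themselves count towards that list.

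Ibsp and Spp1 were the most widely held genes of the bone list. Ibsp, bone sialoprotein, was held by 41 wells (63.1%, 50.2% to 74.7%) at 496, 5188 and 34173 CPM. Spp1, osteopontin, was held by 44 (67.7%, 54.9% to 78.8%) at 453, 13674 and 284273 CPM. Either was held by 55 wells and both by 30. Col1a1 was held by 35 wells (53.8%), over a range from 25.1 to 183885 CPM. Less widely held were Alpl (16 wells) and Dmp1 (8), a matrix protein of osteocytes. Phex and Ifitm5 were held by 4 wells each, Sp7, the transcription factor osterix, by 2, and Mepe by 1. Sost, which mature osteocytes secrete, was held by none of 65, which allows a share of wells holding it of up to 4.62% by counting alone. Bone list genes held in at least 10% of the wells numbered 9 of 14, against 1397 of the 9480 genes held by any well (14.7%).

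Cxcl12, on chromosome 6 (117168535 to 117181367), encodes the chemokine that keeps blood stem cells in the marrow. It was the most widely held of the 8 marker genes, in 26 wells (40%, 28% to 52.9%), 6, 8 and 12 on plates 2, 5 and 12. Its levels in those wells were 56.4, 14098 and 70211 CPM, and it was the most abundant gene of 8 wells. The highest wells of plates 2, 5 and 12 had 70211, 57154 and 58200 CPM, and each plate had wells at 0. Ebf1, on chromosome 11 (44617317 to 45008091), encodes a transcription factor of marrow stroma that early B cells use too. It was held by 18 wells (27.7%, 17.3% to 40.2%), 5, 4 and 9 by plate, at 110, 4727 and 16934 CPM.

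Cxcl12 and Ebf1 were held together by 11 wells. Other genes of the stromal niche lay mainly in the wells with Cxcl12. Adipoq, which encodes the hormone adiponectin, was held by 7 of the 26 wells with Cxcl12 and 0 of the 39 without. Lepr, the leptin receptor, was held by 7 of 26 against 1 of 39, and Kitl, stem cell factor, by 9 of 26 against 1 of 39. Vcam1, an adhesion molecule, was held by 8 of 26 and 3 of 39, and Hp, haptoglobin, by 8 of 26 and 4 of 39. Hp was not limited to wells with stromal genes: 3 of the 5 wells with S100a9 held it, and none of these 5 held Cxcl12. All 14 wells that carried the marrow stroma list held Cxcl12, which is itself a gene of that list. Held over all wells, Hp was in 12, Vcam1 in 11, Kitl in 10, Foxc1 in 9, Lepr in 8, Adipoq in 7, Ebf3 in 4, Lpl in 3, Esm1 in 2 and Il7 in 0. Of the 12 list genes, 8 were held in at least 10% of wells, against 14.7% of all genes held by any well.

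Wells with stromal genes also held bone genes. Runx2 was held by 11 of the 26 wells with Cxcl12 and 3 of the 39 without. Ibsp was held by 19 of 26 and 22 of 39, and Spp1 by 18 of 26 and 26 of 39. Bglap went the other way, held by 5 of the 26 wells with Cxcl12 and 13 of the 39 without. The bone list was carried by 16 of the 26 wells with Cxcl12, and 8 wells carried both the bone and the marrow stroma list, which is 8 of 37 and 8 of 14. The 16 of 26 and the 8 of 14 are near the share of all wells that carried the bone list (37 of 65, 56.9%). A well with both sets of genes could hold 1 cell or more than 1: each well was sorted as a single cell, no doublet caller was run, and this was not tested.

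**Figure D3:**
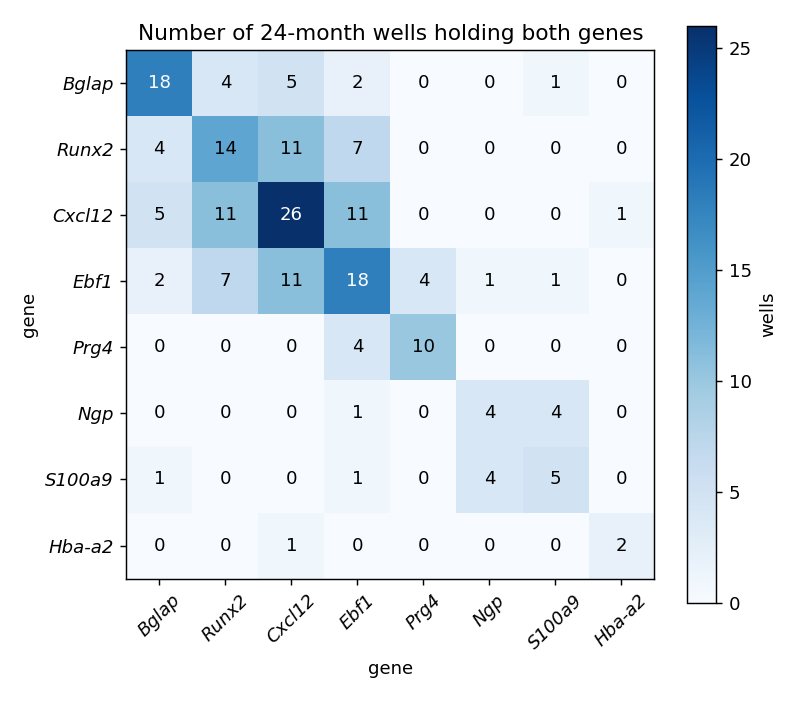
Number of the 65 wells holding both genes of each pair among the 8 marker genes, with the wells holding the single gene on the diagonal. Rows and columns are genes, and colour and digits are wells. Cxcl12 shares 11 wells each with Runx2 and Ebf1, and Prg4 shares wells with Ebf1 alone (4 wells).

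Prg4, on chromosome 1 (150449412 to 150466165), was held by 10 wells, 3, 1 and 6 on plates 2, 5 and 12. On plate 12 its level was 34462 CPM in well N10, 24489 in D02, 6631 in D04, 3552 in N08, 1910 in H12 and 488 in B22. On plate 5 it was 14192 CPM in well G17, and on plate 2 it was 5362 in E20, 2260 in H18 and 674 in H24. The highest and the lowest of these levels were both on plate 12. None of these 10 wells held Bglap, Runx2 or Cxcl12, whereas 18, 14 and 26 of the other 55 wells did. Ebf1 was held by 4 of the 10.

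The Prg4 wells shared a set of matrix genes. Ccdc80, which encodes a secreted matrix protein, was held by 10 of 10 and 25 of the other 55. Dcn, the proteoglycan decorin, was held by 9 of 10 against 21 of 55, Comp, a cartilage matrix protein, by 8 of 10 against 8 of 55, and Sox9, the transcription factor that directs cartilage formation, by 7 of 10 against 6 of 55. Cilp, a protein of articular cartilage, was held by 5 of 10 and 0 of 55, and Cytl1, a secreted protein of cartilage cells, by 6 of 10 and 1 of 55. Cytl1 reached 144824 CPM in well N10 of plate 12 and 140422 CPM in well G17 of plate 5, 14.5% and 14% of their reads. Of the joint surface list, Abi3bp was held by 13 wells, Prg4 by 10, Cilp and Htra4 by 5 each, Vit by 4, Tspan15 and Creb5 by 3 each and Clic5 by 1, with Erg and Gdf5 in none. Prg4, which itself counts towards this list, was held by all 8 wells that carried it. No well carried both the joint surface and the bone list, or the joint surface and the marrow stroma list. Bone genes were not absent from the Prg4 wells, however: Spp1 was held by 5 of the 10 (39 of the other 55) and Ibsp by 2 (39 of 55), and Prg4 well H18 of plate 2 carried the bone list with 4 of its genes. Wells with Prg4 had a median of 1162 genes and 2777212 reads, and those without had 721 and 1447876; the part of depth in this was not tested.

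Cartilage genes were few beside those of the other ages. The cartilage list was carried by 4 of 65 wells (6.15%, 1.70% to 15%), against 78.3% at 2 months (71.6% to 84%) and 69.4% at postnatal day 3 (50 of 72 wells, 57.5% to 79.8%). Comp was held by 16 wells (24.6%), Sox9 by 13 (20%), and Col2a1, the main collagen of cartilage, by 9 (13.8%). Col11a1, a minor cartilage collagen, was also held by 9. At 2 months the shares of Comp, Sox9 and Col2a1 were 74.5%, 71.7% and 75%. Cnmd, chondromodulin, was held by 1 well, at 21.5 CPM, and by 58.2% of the wells at 2 months. Of the 9 wells with Col2a1, 8 held Bglap, 1 held Prg4 and 1 held Ebf1, while Cxcl12 was in none.

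Fibroblast genes gave no separate set of wells. Dcn was held by 30 wells (46.2%, 33.7% to 59%) at 31.6, 4330 and 50122 CPM, and Lum, a proteoglycan that binds collagen fibres, by 12. Col3a1, type III collagen, and Pdgfra, a growth factor receptor of mesenchymal cells, were held by 8 wells each. Genes of the connective tissue fibroblast were rarer or absent: Fbn1 was in 7 wells, Ly6a in 4, Dpt in 3 and Scara5 in 1, and Col14a1, Clec3b, Pi16, Mfap5, Cd34 and Dpp4 were in 0. Of the 9 wells that carried the list, 6 also carried the bone list and 3 the joint surface list, so none carried it alone. At 2 months it was carried by 14.1% of wells, close to the 13.8% of 24 months, and at postnatal day 3 by 40 of 72 (55.6%). Tendon genes were sparse, with Thbs4 and Fmod in 3 wells each, Scx and Mkx in 1 each and Tnmd in 0.

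Neutrophil genes were held by a few wells, nearly all on plate 2. Ngp, on chromosome 9 (110419747 to 110423012), encodes a protein of neutrophil granules made while these cells mature in the marrow. It was held by 4 wells (6.15%, 1.70% to 15%), all on plate 2, so that without this plate the count was 0 of 44. The wells were A18 with 152214 CPM, D12 with 25751, C02 with 6123 and C12 with 431. S100a9, a subunit of the calcium-binding protein calprotectin, was held by the same 4 wells at 19883, 28305, 4992 and 187.3 CPM. Another well, F14 of plate 12, held S100a9 at 443 CPM and no Ngp.

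These 5 wells differed in what else they held. Well A18 held 10 of the 12 neutrophil genes, among them Lcn2 at 11207 CPM, Lyz2 at 24734 CPM, Ltf at 16809, S100a8 at 13013 and Camp at 9947, with Spp1, Cxcl12 and Dcn at 0. Wells D12 and C02 of plate 2 held 6 neutrophil genes each beside Spp1 at 9555 and 3622 CPM. Well C12 had Ngp and S100a9 at the lowest levels, beside Gpx3 at 63934 CPM, Serpine2 at 31700, Spp1 at 17642 and Ebf1 at 7514. Well F14 of plate 12 held Mmp9 at 3564 CPM and Cd14, a monocyte receptor, at 12934, beside Spp1 at 7416, Ibsp at 6044 and Bglap at 224.4. C12 and F14 carried the bone list, so 2 of the 5 neutrophil wells did. Over the whole neutrophil list, summed levels ran from 2180 to 259588 CPM in these 5 wells and reached at most 4296 in the other 60, with a median of 0. Ptprc, the pan-leukocyte surface protein CD45, was held by none of the 65 wells. What put these reads in the wells was not tested.

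Red cell genes were held by 2 wells, both on plate 5. Hba-a2, on chromosome 11 (32296489 to 32297298), encodes a chain of haemoglobin. Its coding sequence differs from that of Hba-a1 at 1 of 426 bases, so the pair cannot be told apart by most reads. Well G23 held Hba-a2 at 8282 CPM, Hba-a1 at 10234, and Klf1, the transcription factor of red cell development, at 9754, with Spp1 and Cxcl12 at 0. Hbb-bs, Hbb-bt, Alas2 and Car2 were each held by both wells. Well I11 held Hba-a2 at 1056 CPM and Hba-a1 at 970, beside Cxcl12 at 20158 and Serpine2 at 56656. The red cell list summed to 5442 and 33601 CPM in these wells and to at most 1.52 CPM in the other 63. Without plate 5 no well held Hba-a2.

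Other blood and vessel cells were close to absent. No gene of the T and NK cell, megakaryocyte, mast cell and basophil or muscle lists was held by any well. Of the endothelial list only Plvap was held, in 1 well at 21.3 CPM, and of the monocyte and macrophage list only Cd14, in 1 well. Ebf1 apart, B cell genes were Ighm in 2 wells and Pax5 in 1, and Cd79a and Cd79b were held by none. Of the osteoclast list, Ctsk was in 5 wells and Acp5 in 1. Notch3, Acta2 and Kcnj8, of the mural list, were in 2, 1 and 1 wells, S100b was the only glial gene (8 wells), and Adipoq the only adipocyte gene.

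Surface proteins in common use for sorting mouse skeletal stem cells were checked, although the labels do not give the gate. Cd200, used as a positive marker, was held by 28 wells (43.1%, 30.8% to 56%), 7, 11 and 10 by plate, at 25.3, 1186 and 11585 CPM. Itgav, integrin alpha V, also positive, was held by 4 wells. Markers used to leave cells out, Ptprc, Tek, Thy1, Enpep and Eng, were held by none, each allowing a share of up to 4.62%, and Ly76 had no row of its own. Cd200 was held by 12 of the 18 wells with Bglap and 16 of the 47 without.

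Set beside the other ages, most stromal genes were held by a larger share of the 24-month wells. Cxcl12 was held by 40% of wells at 24 months, 8.70% at 2 months and 18.1% at postnatal day 3, and Ebf1 by 27.7%, 6.52% and 15.3%. Lepr was held by 12.3%, 2.72% and 0%, and Adipoq by 10.8%, 0.543% and 0%. Foxc1, a transcription factor of the same list, went the other way, at 13.8%, 36.4% and 30.6%. The marrow stroma list was carried by 21.5% of wells at 24 months, by 2.17% (4 wells) at 2 months and by 3 of 72 at postnatal day 3 (4.17%). These are values of 1 sample an age.

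Bone genes did not share 1 order of the ages. Ibsp was held by 63.1%, 23.4% and 6.94% of wells at 24 months, 2 months and postnatal day 3, and Spp1 by 67.7%, 30.4% and 1.39%. Bglap was held by 27.7%, 16.8% and 1.39%, and at 17% without plate 5 the 24-month share lay beside that of 2 months. Runx2 stood at 21.5%, 20.1% and 6.94%, with the first pair well inside each other's intervals. Col1a1 was highest at postnatal day 3, at 53.8%, 23.9% and 66.7%, and Alpl stood at 24.6%, 27.2% and 12.5% and Sp7 at 3.08%, 12.5% and 9.72%. Prg4 was held by 15.4%, 26.1% and 30.6%, with overlapping intervals. Ngp was held by 0.543% of wells at 2 months and 0% at postnatal day 3, S100a9 by 1.09% and 0%, and Hba-a2 by 2.17% and 1.39%. The 2-month plates share no batch with the others, so that age and batch cannot be told apart. Within batch 3, which holds postnatal day 3 and plates 2 and 12, Cxcl12 was held by 18 of 47 wells at 24 months (38.3%) and Ebf1 by 14 of 47 (29.8%).

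**Figure D4:**
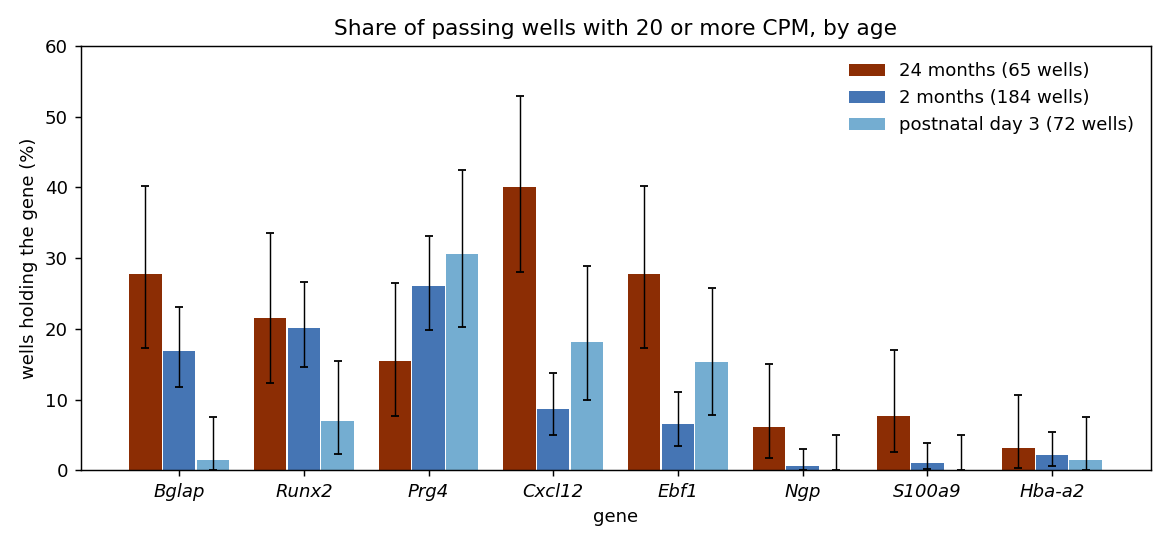
Share of passing wells holding each of the 8 marker genes, in percent, at 24 months (65 wells), 2 months and postnatal day 3 (72 wells). Bars are shares and lines are exact 95% binomial intervals, which cover counting error only. Cxcl12 stands at 40% at 24 months against 8.70% and 18.1%, while the intervals of Prg4 overlap.

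Few genes were shared by most wells. Of 55604 gene rows, 14 (0.0252%) were held by at least 80% of the 65 wells, 81 by at least 50%, and 3613 of the 9480 genes held at all (38.1%) were held by exactly 1 well. With all wells thinned to 50000 reads, 16 genes were held by at least 80% of wells at 24 months, 24 at 2 months and 160 at postnatal day 3. Thinned wells held a median of 561, 1172 and 1736 genes at the 3 ages. At 24 months, 2 months and postnatal day 3, ERCC spike-ins took a median of 11.1%, 7.77% and 4.64% of gene and spike-in reads. For the kept wells of plates 2, 5 and 12 the medians were 6.34%, 13.05% and 19.08%. Fewer active genes and less RNA caught per cell cannot be told apart here, and neither was tested.

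**Figure D5:**
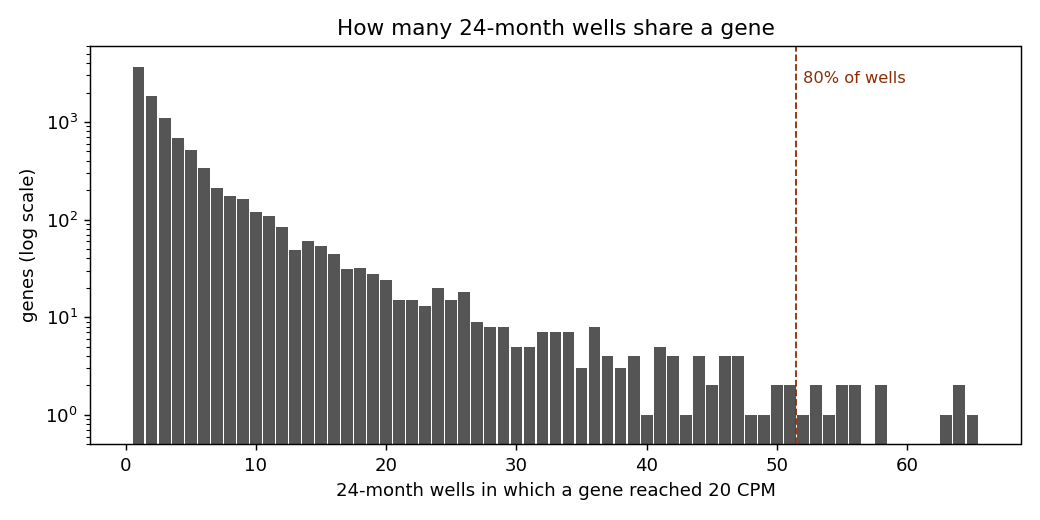
Number of genes (log scale) against the number of 24-month wells, of 65, in which a gene reached 20 CPM. Bars are genes and the dashed line marks 80% of wells. The first bar holds 3613 genes, and 14 genes lie right of the line.

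The widely held genes were mostly RNA and protein housekeeping. The ribosomal RNA gene CT010467.1 was held by all 65 wells, and Malat1, an abundant nuclear RNA, by 64. Gm37376, which lies inside Malat1 on the other strand and may take its reads, was also in 64. Actb, cytoskeletal actin, was held by 63 wells, Ubb, ubiquitin, and mt-Rnr2, mitochondrial ribosomal RNA, by 58 each, Cst3, the protease inhibitor cystatin C, by 56, Rps25, a ribosomal protein, by 55, mt-Cytb, a respiratory chain subunit, and Fth1, a ferritin chain, by 53 each. Gm1821 and Gm28437, in 56 and 55 wells, are annotated as pseudogenes, whose reads may come from near-identical genes. Gpx3, an extracellular glutathione peroxidase, was held by 54 wells (83.1%) at 149.3, 7687 and 79682 CPM, against 60.9% of wells at 2 months and 15.3% at postnatal day 3. Col1a2, a chain of type I collagen, was held by 52 (80%) at 44.5, 4926 and 205383 CPM, against 57.1% and 91.7%.

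The most abundant gene, by share of reads, changed from well to well. It was 1 of 23 genes and took 1.43%, 5.31% and 28.4% of a well's reads (lowest, median and highest). Malat1 led in 9 wells, Cxcl12 and Spp1 in 8 each, Col1a2, Limch1 and Serpine2 in 5 each, Col1a1 in 4, Gpx3 in 3, and Ccdc80, Cytl1 and Lifr in 2 each. The other 12 genes led in 1 well each. Spp1 took up to 28.4% of reads where it led, and Cxcl12 up to 7.02%. Serpine2, a secreted protease inhibitor, was held by 47 wells in all, Lifr, a cytokine receptor, by 45, Ccdc80 by 35, Limch1, a cytoskeletal regulator, by 29 and Cytl1 by 7. Serpine2 was held by 25 of the 26 wells with Cxcl12 and 22 of the 39 without, and Limch1 by 17 of 26 and 12 of 39. Long transcripts give more reads in this method, so these ranks are of reads and not of molecules.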

How the data were processed

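Single wells of SmartSeq2 libraries were used from 1 table. The authors deposited RSEM expected counts for each gene and well. Per the submitters' processing notes, bcl2fastq 2.18, STAR 2.4, RSEM 1.2.21 and the build GRCm38.p6 were used; the annotation release is not given in the sources used here. Of the values above 0, 14.8% were not whole, and all were rounded. The 92 ERCC rows were kept out of totals. Plate, well, age and index pair in its name tied each column to a sample, and 1 column without a match was not used. No index pair was shared between wells (0 pairs).

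CPM was computed per well from its gene reads. Shares carry exact Clopper-Pearson 95% intervals. Where no well held a gene, the upper limit is the share of 3 wells. Wells were thinned without replacement (seed 1). No test was made, since an age is 1 sample; plates are given side by side. Genes were matched by symbol to GENCODE M21.

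The members and the 21 gene lists were chosen with earlier results of these data known. Named are the 8 marker genes, the most widely held members of each list (3, or those tied with them), all sort markers, the most widely held genes (up to 15 in at least 80% of wells) and genes leading at least 2 wells; other names were chosen after their values were seen. Some members of the lists are not reported here by name. Alternatives changed the detection limit, the well filter and the plates. Scripts ran in Python 3.11.15 with pandas 2.3.3, numpy 2.4.6, matplotlib 3.10.9 and scipy 1.17.1.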

Additional observations from a re-analysis of the deposited data

Results flagged for a closer look

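Blood genes also had reads in 24-month wells that did not pass the filter and enter no comparison. This was not particular to blood genes. Cxcl12 had 3 or more reads in 20 of these wells, Spp1 in 14, Runx2 in 7, Bglap in 6, Ebf1 in 3 and Prg4 in 0. Ngp had 3 or more reads in 3 of these wells and S100a9 in 8. The highest values of both were in well F12 of plate 12, with 4503 reads of Ngp and 8029 of S100a9 among 464123 gene reads and 345 genes. Hba-a2 had 3 or more reads in 9 wells. Its highest value was 165203 reads in well P22 of plate 12, which is 24.3% of the 680286 gene reads of that well, over 80 genes. So Ngp and Hba-a2, held by no passing well of plate 12, were present in wells of that plate with too few genes to pass.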

How the results depend on the processing

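Over 22 results, 30 alternative values moved outside the interval of the value reported (for counts, by over 1.5 times) and the rest stayed within it. Thinning, a minimum of 200000 reads and a mitochondrial limit of 10% moved none. The choice of wells moved the most. With at least 1000 genes, 15 wells passed, and they held Prg4 in 46.7%, Ebf1 in 46.7%, Cxcl12 in 26.7%, Bglap with Runx2 in 20%, and Ngp, S100a9, Hba-a2 and Ngp with S100a9 in 0%; the joint surface and fibroblast lists were carried by 46.7% each, the neutrophil and red cell lists by 0%. Genes held by at least 80% of wells numbered 71 with at least 1000 genes, 8 with at least 300 genes, 24 when 1 read counted as held, 8 at 100 CPM and 5 at 1000 CPM. At 1000 CPM, Bglap was held by 10.8% of wells, and the bone, fibroblast and joint surface lists were carried by 43.1%, 6.15% and 4.62%. Leaving out each plate in turn gave 39 to 47 passing wells (39 without plate 12). The share with Bglap ran from 17% (without plate 5) to 36.4%, with Hba-a2 from 0% (without plate 5) to 5.13%, with Ngp from 0% (without plate 2) to 10.3%, with S100a9 from 2.27% (without plate 2) to 10.6%, and with both Ngp and S100a9 from 0% (without plate 2) to 10.3%. The neutrophil list ran from 2.27% (without plate 2) to 10.6% and the red cell list from 0% (without plate 5) to 5.13%. The cause of these changes was not tested. No paired analysis was possible because the plates carry no shared replicate numbers and no result comes from a test. With 65 wells, a count of 0 allows up to 4.62% of such wells to hold a gene, by counting alone; a cell can express a gene that its well does not hold.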

Other observations

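The 9 wells in which Malat1 was the most abundant gene lay mostly on plate 2 (8 wells, with 1 on plate 12). They had 501, 681 and 1261 genes (lowest, median and highest), and the other 56 wells 504, 739 and 2294. Their mitochondrial share had a median of 3.24% against 0.531%. Over all kept wells of plates 2, 5 and 12 this median was 1.6%, 0.638% and 0.432%, and the part of the plate in the difference was not tested. Gpx3 was held by 7 of the 9 and 47 of the other 56, and Cxcl12 by 3 and 23. The bone list was carried by 4 of the 9 and 33 of the 56. These wells were singled out after the values were seen.

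B cell genes other than Ebf1 were at high levels in 2 wells of plate 2. Well A06 held Pax5, a transcription factor of B cells, at 3360 CPM and Ighm, the immunoglobulin mu chain, at 2074 CPM, beside Col1a1 at 53483 CPM and Ibsp at 7954 CPM, and well D18 held Ighm at 4886 CPM beside Spp1 at 23070 CPM.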
